A study of Mus musculus with 31 samples.

Results

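The response of mouse masseter muscle (MM) 5 days after complete Freund's adjuvant (CFA) was set against its response 6 days after 10U of collagenase type 2 (Col), each taken relative to a vehicle group, to ask which insult had left gene expression near vehicle and which had not. The members were all libraries of the 4 groups that this contrast needs, 3 per group and 12 of the 31 libraries of the series. Before testing, 147 genes were set aside. In these genes all 11 libraries treated with 10U of Col lay on one side of all 20 other libraries. The 20 comprise the CFA groups, the vehicle groups and the groups labelled C_1C and C_RPC, which received a lower dose of Col. The lower-dose libraries are not members, but enter the fits and scaling of all 31 libraries and the correlations made outside the contrast. Of the 22609 genes counted, 14753 were then tested. The interaction is the log2 change at 5d post-CFA minus the log2 change at 6d post-Col, so a negative value means that the CFA effect lay below the Col effect.

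The mice were male C57BL/6J, aged 2 to 4 months by the study's methods. The left MM received a single injection of 10 µl of CFA mixed 1:1 with PBS (group labelled CFA_5d), of 10U of Col (MM_Co_6d), or of PBS as vehicle (CFA_control and Contr). CFA_control was taken as the CFA vehicle and Contr as the Col vehicle, although the title of Contr names no experiment. The collection day of the vehicle groups and whether the numbered libraries of a group are separate mice are not given by the labels, so p-values measure the spread between libraries. Groups labelled CFA_1d, 2d_post_col and 12d_post_col, which the study's methods place at 1d post-CFA and at 1d and 14d post-Col (10U), serve as earlier and later time points. The labels describe the material as all muscle cells, and the whole dissected muscle was homogenized.

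CFA is an oil emulsion of killed mycobacteria that draws monocytes and lymphocytes into a tissue. Collagenase digests the collagen scaffold that holds muscle fibres, and damaged fibres are then cleared by macrophages and rebuilt by satellite cells. Rebuilding runs through a known order, in which myogenic transcription factors such as myogenin are followed by fusion proteins, embryonic isoforms of the sarcomere and the fetal acetylcholine receptor, while fibroblasts lay down new matrix.

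Reads counted on genes ranged from 18063685 to 29076671 in the 12 libraries. The defining muscle genes Acta1, Ckm, Myh4, Ttn, Mylpf, Tnnt3 and Des lay between 1839 and 57160 CPM (a gene's share of the reads on genes, scaled by TMM) in every one of them. Genes of other tissues varied between libraries. The salivary gland genes held 14.9, 10.7 and 12.6% of all counts at 5d post-CFA, 0.0373, 0.0231 and 1.96% in the CFA vehicle libraries, 0.018, 11.8 and 5.08% in the Col vehicle libraries and 0.0161, 0.0112 and 0.0187% at 6d post-Col. Mean log2 levels of 4 red blood cell genes reached 4.88 in CFA vehicle replicate 3 and 5.47 in the Col vehicle group, against -0.55 to 0.03 at 5d post-CFA and -0.47 to -0.20 at 6d post-Col, and neutrophil and bone scores were raised in the same vehicle libraries. Among the other time points, replicate 2 of CFA_1d and replicate 4 of 2d_post_col lay near vehicle and replicate 4 of 12d_post_col lay near 6d post-Col, and values that rest on them are given with and without them. In these bulk libraries, fewer cells of a type and less RNA per cell cannot be told apart.

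**Figure D1:**
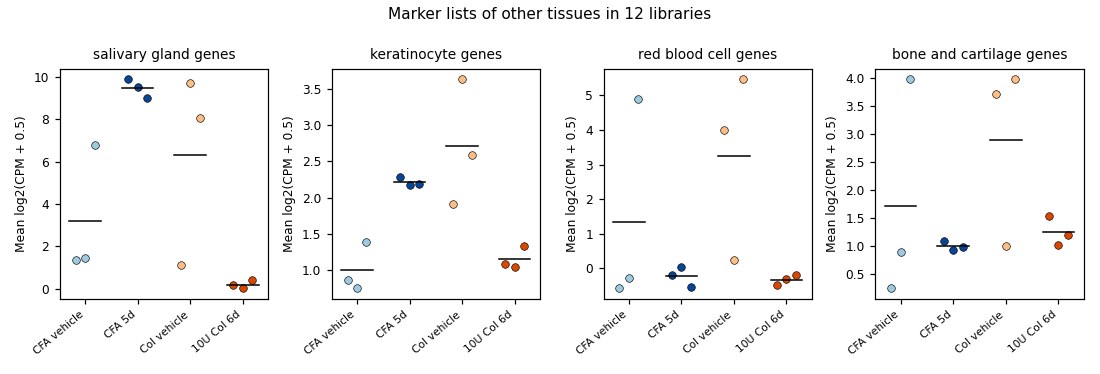
Scores of genes of other tissues in the 12 libraries: each point is 1 library, the y axis is the mean log2(CPM + 0.5) over the genes of the list, and the x axis gives the 4 groups. The salivary gland score lay between 9.0 and 9.90 in all libraries at 5d post-CFA and between 0.03 and 0.40 at 6d post-Col. It ran from 1.35 to 6.79 in CFA vehicle and from 1.15 to 9.72 in Col vehicle, where replicate 2 lay within the 5d post-CFA range.

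The genes set aside are described first. Of the 147, 91 were higher and 56 lower in all 11 libraries of 10U than in the 20 others. Had they been kept, 33 of the 91 would have been called with a CFA effect below the Col effect and 36 of the 56 with one above it. The widest gaps above belonged to C230091D08Rik, at 24.6 to 38.3 CPM in the 10U libraries and at most 0.0807 CPM elsewhere, Gm5088, 4930429F24Rik, Ptger1, a prostaglandin E receptor, and Sh2d7. The widest gaps below belonged to Tmem140, Tpt1, Phospho1, Sco2 and Rpl5. A gene on the opposite strand overlapped 54.8% of those above and 88.9% of those below, against 32.7% of the genes tested. Reads that could not be assigned to 1 gene made up 0.675 to 0.875% of counts in the 11 libraries of 10U and 0.147 to 0.317% in the 20 others. The Col vehicle group was among the 20, at 0.166 to 0.236%. How the libraries were counted and the treatment with 10U of Col therefore cannot be told apart for these genes. Among the genes called in the interaction after removal, 32% above and 31.4% below overlapped an opposite-strand gene, near the share of all genes tested.

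At 6d post-Col the muscle carried a broad change. 1348 genes rose (9.14% of those tested) and 1487 fell (10.1%) against the Col vehicle group, at an adjusted p under 0.05 and a change over 2-fold by edgeR's quasi-likelihood test. Without replicate 2 of 6d post-Col these counts were 656 and 618. Reads not assigned to 1 gene made up 0.768 to 0.852% at 6d post-Col and 0.166 to 0.236% in its vehicle group. In the CFA experiment they made up 0.157 to 0.172% at 5d and 0.206 to 0.229% in vehicle. With genes overlapping the opposite strand left out, 950 of 9983 genes rose and 1021 fell at 6d post-Col. The part of the counting in these numbers was not tested further. At 5d post-CFA, 1 gene rose (0.00678%), the embryonic myosin heavy chain Myh3, and 0 fell (0%), although 1511 genes were higher and 637 lower at an unadjusted p under 0.05 and DESeq2 called 495 and 73. The count at 5d post-CFA depended on single vehicle libraries. Without CFA vehicle replicate 3, the library with high red blood cell and neutrophil genes, 850 genes rose and 86 fell, and without Col vehicle replicate 1 or 2, which enter this effect only through the shared spread and scaling, 175 and 187 rose and 11 and 14 fell. The counts were 25 higher and 1 lower without replicate 1 of 5d post-CFA, 1 higher without replicate 2 or 3 of 6d post-Col, and 0 higher without any 1 of the other 6 libraries. In a fit of the 6 CFA libraries alone, 138 genes rose and 6 fell.

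The 2 effects differed in 1358 genes. The CFA effect lay above the Col effect in 852 (5.78%) and below it in 506 (3.43%). Those below were mostly genes that Col had raised: 429 of the 506 rose at 6d post-Col, with a median log2 change of 1.66, and their median at 5d post-CFA was -0.22. Those above were mixed, since 617 of the 852 fell at 6d post-Col (median -1.91) and 507 were higher at 5d post-CFA at an unadjusted p under 0.05 (median 1.15). Both effects enter the interaction, so these shares and medians follow in part from how the genes were selected and only describe them. Across all 14753 genes the medians were -0.03 at 6d post-Col, -0.02 at 5d post-CFA and 0.04 for the interaction. At an unadjusted p under 0.05 the interaction lay above 0 in 2417 of them and below 0 in 1783. At 6d post-Col 2967 genes were higher and 3650 lower at that threshold. List counts further on stand beside these numbers and the shares called.

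Salivary gland genes moved with the contrast. In the 19 libraries outside the contrast, 241 of the 852 genes above (28.3%) and 0 of the 506 below followed the salivary score at r over 0.8, against 2.07% of all genes tested, and 0 of either set had r under -0.8. The 16 genes that make up the score were not left out of these counts. The score was high at 5d post-CFA and near its lowest at 6d post-Col, so a gene that follows it lies above by the choice of libraries, and nothing is read from these shares. Of the 611 that did not follow it, 432 fell at 6d post-Col and 290 were higher at 5d post-CFA at an unadjusted p under 0.05. With the salivary score, which separates the treated groups without overlap, as a covariate, 1 gene was called above and 2 below. With the salivary and the red blood cell score as covariates, 310 were called above and 532 below. Only 114 of these 310 were among the 852, and 141 of these 532 were among the 506. The part of salivary tissue in the difference was not tested beyond these fits.

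The interaction also equals the direct difference between the treated groups minus that between the vehicle groups. Directly, 1736 genes were higher (11.8%) and 1513 lower (10.3%) at 5d post-CFA than at 6d post-Col, which became 1014 and 885 without 6d post-Col replicate 2 and 1129 higher without 5d post-CFA replicate 2. The vehicle groups differed in 13 genes that were higher (0.0881%) and 47 that were lower (0.319%) in the CFA vehicle group. With the replicate number as a block these were 1 and 15. They became 50 and 126 without CFA vehicle replicate 3. The 13 became 3 to 8 without any 1 of the other libraries save 5d post-CFA replicate 3, and the 47 became 17 to 28 without CFA vehicle replicates 1 or 2, Col vehicle replicates 2 or 3 or any library at 6d post-Col. Of the 852 genes above, 769 were also called higher in the direct comparison of the treated groups and 18 had a called difference of opposite direction between the vehicle groups. Of the 506 below these counts were 443 and 4. Both differences enter the interaction, so these overlaps also follow in part from the selection. Leaving out 1 library changed the counts strongly. They fell to 477, 446 and 428 above without 5d post-CFA replicates 1, 2 and 3, to 559 and 479 without CFA vehicle replicates 1 and 2, to 438 without Col vehicle replicate 2 and to 435, 267 and 565 without 6d post-Col replicates 1, 2 and 3. Those below changed by over 1.5-fold without 5d post-CFA replicates 2 and 3 (307 and 295), without 6d post-Col replicates 1 and 2 (322 and 180) and without Col vehicle replicate 3 (877).

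**Figure D2:**
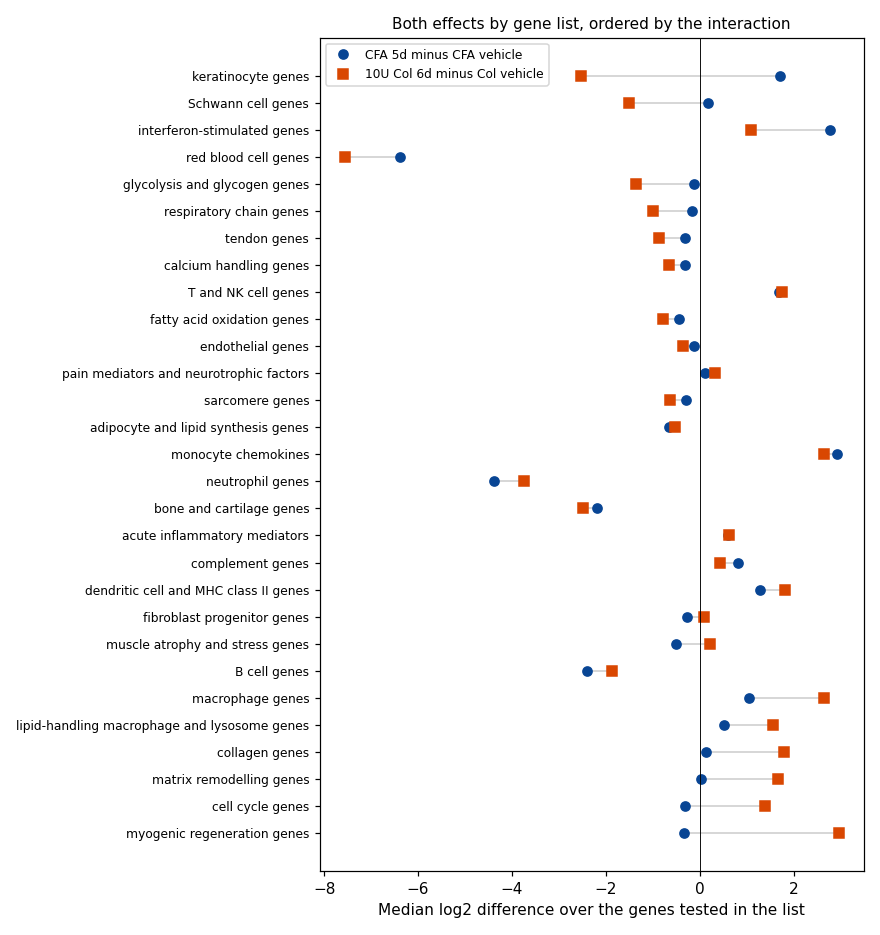
Median log2 change of each gene list at 5d post-CFA against CFA vehicle and at 6d post-Col against Col vehicle, on a linear log2 axis, with 29 lists ordered by their median interaction and salivary gland genes left out. Myogenic regeneration genes lie at -0.34 and 2.96, and monocyte chemokines at 2.93 and 2.65.

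Of the gene lists, muscle regeneration held the most genes with a CFA effect below the Col effect. Of 26 myogenic regeneration genes tested, 21 had a CFA effect below the Col effect and 0 above, 19 rose at 6d post-Col and 0 fell, and the median change was 2.96 at 6d post-Col and -0.34 at 5d post-CFA. Their mean log2 level was 6.71 to 7.21 in the libraries at 6d post-Col and 3.25 to 3.56 at 5d post-CFA, where it lay below the 3.65 to 3.96 of its vehicle group. The Col vehicle libraries lay at 3.69 to 4.13. The interaction called 21 genes of the list below without CFA vehicle replicate 3, 14 with both tissue covariates and 0 with the salivary covariate alone, under which its median was -2.98 and 17 genes rose at 6d post-Col. With 1 library left out, 17 to 22 were called below.

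Myog, which encodes myogenin and drives myoblasts into differentiation (mm9, chromosome 1, 136186581 to 136189124), was at 10.9, 5.9 and 7.11 CPM in the CFA vehicle libraries, 3.91, 5.1 and 4.87 CPM at 5d post-CFA, 8.06, 8.16 and 3.35 CPM in the Col vehicle libraries and 215, 278 and 191 CPM at 6d post-Col. All 3 libraries at 6d post-Col stood far above the others, and those at 5d post-CFA lay below every CFA vehicle library. The log2 change was 5.12 ± 0.36 (SE, adjusted p = 4.36e-05) at 6d post-Col and -0.72 ± 0.32 (SE, adjusted p = 0.335) at 5d post-CFA, and the interaction was -5.84 ± 0.47 (SE, adjusted p = 0.000715).

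Tmem8c (myomaker), a membrane protein needed for myoblast fusion, went from 0.455, 0.261 and 0.0906 CPM in the Col vehicle libraries to 120.3, 111 and 61.9 CPM at 6d post-Col. In the CFA experiment it was near 0 throughout, at 0.0409, 0.0469 and 0.259 CPM in vehicle and 0.186, 0.26 and 0.159 CPM at 5d. Chrng, the fetal gamma subunit of the muscle acetylcholine receptor (mm9, chromosome 1, 89102386 to 89108410), had the same form, at 0.123, 0.0937 and 0.148 CPM in the CFA vehicle libraries, 0.093, 0.156 and 0.265 CPM at 5d post-CFA, 0.273, 0.196 and 0.0906 CPM in the Col vehicle libraries and 89.8, 195 and 110.3 CPM at 6d post-Col. Its interaction was -8.92 ± 0.96 (SE, adjusted p = 0.00209). Both genes were close to the limit of detection outside the 6d post-Col group. Of the other receptor subunits, Chrna1, Chrnb1 and Chrnd rose by 4.15, 2.52 and 3.81 on the log2 scale at 6d post-Col, and the adult epsilon subunit Chrne had a change of -0.57 that did not pass the test.

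Troponins of embryonic and slow fibres followed. Tnnt2, the cardiac and embryonic troponin T, was at 0.409, 0.797 and 0.815 CPM in the CFA vehicle libraries, 0.512, 0.208 and 0.371 CPM at 5d post-CFA, 0.592, 0.587 and 1.58 CPM in the Col vehicle libraries and 178, 161 and 72.6 CPM at 6d post-Col. The interaction was -7.96 ± 0.76 (SE, adjusted p = 0.00113), and only the 6d post-Col libraries stood apart. Tnni1, the slow skeletal troponin I, was at 0.859, 2.48 and 1.56 CPM in the CFA vehicle libraries, 0.326, 0.416 and 0.635 CPM at 5d post-CFA, 3.64, 0.652 and 1.68 CPM in the Col vehicle libraries and 204, 222 and 85.8 CPM at 6d post-Col. Here the CFA groups also did not overlap, with 5d post-CFA lower, and the interaction was -8.13 ± 0.86 (SE, adjusted p = 0.00209). Myl4, the embryonic atrial myosin light chain, had an interaction of -7.24. The imprinted non-coding RNA H19, abundant in fetal muscle (mm9, chromosome 7, 149761434 to 149764048), was at 320.2, 206 and 241 CPM in the Col vehicle libraries and 4593, 6355 and 3939 CPM at 6d post-Col, with 239, 363 and 223 CPM in CFA vehicle and 262, 264 and 245 CPM at 5d post-CFA. Its interaction was -4.29 ± 0.38 (SE, adjusted p = 0.000944), and Igf2, the fetal growth factor of the same imprinted domain, had one of -3.31.

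The satellite cell genes upstream of myogenin moved less. Pax7, the satellite cell marker, had an interaction of -1.13 ± 0.47 (SE, adjusted p = 0.143) and was not called. Myf5 and Myod1, the determination factors that precede myogenin, had interactions of -2.10 ± 0.49 (SE, adjusted p = 0.0238) and -1.38 ± 0.32 (SE, adjusted p = 0.0225). Myod1 had a change of 0.45 at 6d post-Col and -0.93 at 5d post-CFA, neither of which passed. Pax7 and the genes of the list named without being among its 4 smallest adjusted p-values or the largest interactions were chosen after their values were seen.

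**Figure D3:**
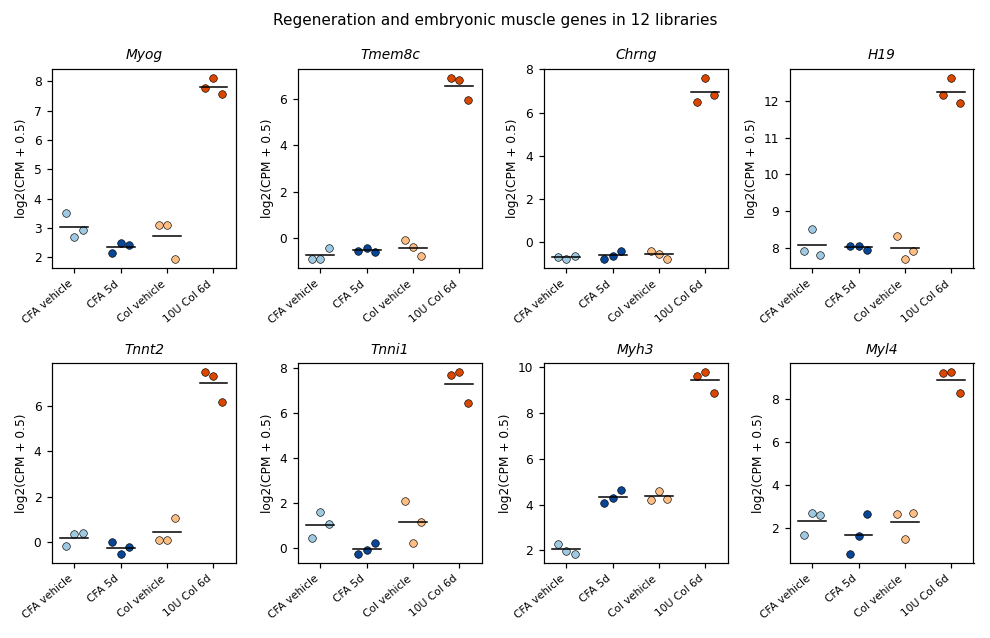
Levels of 8 regeneration genes in the 12 libraries: each point is 1 library on a log2(CPM + 0.5) axis, lines are group means of those log2 values, and the x axis gives the 4 groups. In every panel the 3 libraries at 6d post-Col lie above the 9 others, with Myog at 215, 278 and 191 CPM there.

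Promoter sequences are shown for 4 of these genes, which all lie on chromosome 1 and had interactions between -5.84 and -8.92, because myogenic factors bind the E-box CANNTG. The sequences are the 250 bases before the start site in RefSeq's GRCm38.p6, + strand, with each CANNTG in capitals (the motif reads the same on both strands, and CAGCTG is a form of it). They lie at chr1:134289754-134290003 (Myog), chr1:135836084-135836333 (Tnnt2), chr1:135799171-135799420 (Tnni1) and chr1:87205561-87205810 (Chrng), and for Tnnt2 and Tnni1 the first of 2 listed starts was taken.
Myog: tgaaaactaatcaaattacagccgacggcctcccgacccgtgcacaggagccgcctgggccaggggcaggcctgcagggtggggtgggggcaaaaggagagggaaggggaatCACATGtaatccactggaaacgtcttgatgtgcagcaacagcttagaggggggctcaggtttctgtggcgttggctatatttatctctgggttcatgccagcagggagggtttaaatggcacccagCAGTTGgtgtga
Tnnt2: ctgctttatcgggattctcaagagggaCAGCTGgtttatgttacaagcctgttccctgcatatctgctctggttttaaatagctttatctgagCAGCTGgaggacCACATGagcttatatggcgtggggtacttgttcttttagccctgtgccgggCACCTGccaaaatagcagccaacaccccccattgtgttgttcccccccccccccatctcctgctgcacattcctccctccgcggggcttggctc
Tnni1: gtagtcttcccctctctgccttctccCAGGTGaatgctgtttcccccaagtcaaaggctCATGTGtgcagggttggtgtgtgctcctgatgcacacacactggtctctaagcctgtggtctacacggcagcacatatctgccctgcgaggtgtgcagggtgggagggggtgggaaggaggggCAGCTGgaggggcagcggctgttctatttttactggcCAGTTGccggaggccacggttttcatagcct
Chrng: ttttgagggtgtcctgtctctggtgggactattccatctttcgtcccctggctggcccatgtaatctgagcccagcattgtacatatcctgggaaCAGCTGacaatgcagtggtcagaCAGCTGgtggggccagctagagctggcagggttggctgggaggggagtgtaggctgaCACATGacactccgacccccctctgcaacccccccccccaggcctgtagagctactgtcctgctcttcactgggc
Myog held 2 matches to CANNTG, Tnnt2 4, Tnni1 4 and Chrng 3, of which 0, 2, 1 and 2 were CAGCTG. Of the 26 genes of the list, 19 had a promoter of this length, and 13 of them (68.4%) held CANNTG against 66% of all 27025 promoters. CAGCTG stood in 6 (31.6%) against 12.8% of all promoters. A match is a string of letters and not a bound site.

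Myh3, the embryonic myosin heavy chain that marks newly formed fibres (mm9, chromosome 11, 66891802 to 66915793), was the only gene called in both effects. It was at 4.42, 3.42 and 3.11 CPM in the CFA vehicle libraries, 16.1, 18.8 and 24.3 CPM at 5d post-CFA, 18, 23.6 and 18.5 CPM in the Col vehicle libraries and 787, 868 and 460.4 CPM at 6d post-Col. It rose by 2.5 ± 0.27 (SE, adjusted p = 0.0204) at 5d post-CFA and by 5.12 ± 0.30 (SE, adjusted p = 1.42e-05) at 6d post-Col on the log2 scale, and the effects differed by -2.62 ± 0.37 (SE, adjusted p = 0.0043). The CFA vehicle libraries were low, however, and the 5d post-CFA libraries lay in the range of the Col vehicle libraries, which were separated from the CFA vehicle group by -2.48 on the log2 scale (CFA minus Col vehicle, adjusted p = 0.00275). With the replicate number as a block the change at 5d post-CFA was not called (adjusted p = 0.0688) and the vehicle groups differed at an adjusted p of 0.0197. With each of the 12 libraries left out in turn the interaction of Myh3 was called, with adjusted p at most 0.016.

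Several of the other genes with the largest Col excess were near absence outside 6d post-Col. Agtr2, the angiotensin type 2 receptor, rose at least 33.4-fold at 6d post-Col, taking 3 counts per library as the floor. By the same bound R3hdml rose at least 50.9-fold, Gm7325 (myomixer, the partner of myomaker in fusion) at least 171-fold and the acute phase gene Orm2 at least 43.8-fold. In all 4 the Col vehicle and the 5d post-CFA libraries were at or under the floor. Sox11, a transcription factor of progenitor cells, had an interaction of -7.29 ± 0.83 (SE, adjusted p = 0.00233).

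In the lists of adult muscle genes more fell than rose at 6d post-Col, and fibre type itself was not tested. Of 38 sarcomere genes, 14 fell and 3 rose at 6d post-Col, 0 were called at 5d post-CFA, and the interaction was called below in 4 and above in 1. The 14 were 4 to 7 without Col vehicle replicates 1 or 2 or 6d post-Col replicates 1 or 2. The 3 that rose, Tnnt1, Tnnc1 and Myoz2, belong to slow fibres and were among the 4. The other was Lmod2, a thin filament protein named after its values were seen (-1.61). Tnnt1, the slow troponin T, was at 8.69, 2.61 and 7.88 CPM in Col vehicle, 214, 452 and 207 CPM at 6d post-Col, 1.96, 6.04 and 4.45 CPM in CFA vehicle and 0.651, 0.676 and 2.91 CPM at 5d post-CFA. Its interaction was -6.97 ± 0.93 (SE, adjusted p = 0.00385), that of Tnnc1, the slow troponin C, -6.70, and that of Myoz2, a Z-disc protein of slow fibres, -3.62. The 6d post-Col libraries lay above all others in each. Mylk2, the myosin light chain kinase of skeletal muscle, had an interaction of 3.06 with -2.58 at 6d post-Col. Of 18 calcium handling genes, 7 fell and 2 rose at 6d post-Col. The 2 were Casq2, the slow-fibre calsequestrin, and Sln, sarcolipin, a brake on the calcium pump. Their interactions were -3.11 ± 0.37 (SE, adjusted p = 0.00271) and -7.00. Without the same libraries 1 to 4 of this list fell.

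Stress genes of muscle were part of the Col response as well. Of 26 muscle atrophy and stress genes, 10 rose and 3 fell at 6d post-Col, and 7 had a CFA effect below the Col effect. Ankrd1, a stretch-responsive ankyrin repeat protein, was at 0.0818, 0.469 and 1.19 CPM in the CFA vehicle libraries, 0.512, 0.312 and 0.953 CPM at 5d post-CFA, 1.46, 0.587 and 1.95 CPM in the Col vehicle libraries and 43.6, 190.2 and 123 CPM at 6d post-Col. Gadd45a, a growth arrest gene, was at 15.5, 15.9 and 17.9 CPM in Col vehicle and 63.8, 342 and 284 CPM at 6d post-Col. Cdkn1a, the cell cycle inhibitor p21, was at 106, 81.1 and 56.1 CPM and 391, 1629 and 1058 CPM in the same groups. Replicate 1 was the lowest of the 6d post-Col libraries for all 3 genes. Their interactions were -6.38 ± 1.12 (SE, adjusted p = 0.0103), -4.62 ± 0.69 (SE, adjusted p = 0.00557) and -3.93 ± 0.60 (SE, adjusted p = 0.00572). Fbxo30, a ubiquitin ligase of atrophy, had one of -2.20. Fbxo32, the ligase atrogin-1, named after its values were seen, had one of -2.53 ± 0.82 (SE, adjusted p = 0.0718), and its CFA vehicle values ran from 280.4 to 2151 CPM.

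Lists of energy metabolism had negative medians at 6d post-Col, and these were nearer 0 at 5d post-CFA. Of 26 glycolysis and glycogen genes, 15 fell and 1 rose at 6d post-Col (median -1.35), and the median at 5d post-CFA was -0.11. Of 75 respiratory chain genes, 30 fell and 0 rose (median -0.99, against -0.17 at 5d post-CFA), and of 30 fatty acid oxidation genes 10 fell and 0 rose (median -0.77, against -0.45). The interaction itself was called above in 2 of the 26 genes of the first list and 2 of the 75 of the second, against 5.78% of all genes tested. The 30 falling respiratory chain genes were 14, 15 and 51 without Col vehicle replicates 1, 2 and 3 and 9 without 6d post-Col replicate 2, which also left 6 falling in the first list and 4 in the third (5 without Col vehicle replicate 1). The interaction called 31 respiratory chain genes above without Col vehicle replicate 3 and 0 without any 1 of the other libraries.

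The genes of the first and second list called above with all 12 libraries were Phkg1, the catalytic subunit of muscle phosphorylase kinase, Slc2a3, a glucose transporter, and Atp5e and Uqcrb, subunits of ATP synthase and complex III. Phkg1 was at 920.1, 776 and 501 CPM in the CFA vehicle libraries, 549, 837 and 615 CPM at 5d post-CFA, 715, 766 and 551 CPM in the Col vehicle libraries and 150.0, 61.4 and 149 CPM at 6d post-Col. Its interaction was 2.44 ± 0.49 (SE, adjusted p = 0.0143), and the 6d post-Col libraries alone stood apart. The interactions of the others were 1.34, 2.20 and 1.53.

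Macrophage genes were high after Col and partly so after CFA. Of 24 macrophage genes, 18 rose and 1 fell at 6d post-Col (median 2.65). At 5d post-CFA 0 were called, 11 were higher at an unadjusted p under 0.05 and the median was 1.06. Without CFA vehicle replicate 3, 8 of the 24 rose at 5d post-CFA, and without 6d post-Col replicate 2, 9 rose at 6d post-Col. The interaction was called in 0 of them by edgeR, with 1 above and 2 below at an unadjusted p under 0.05, and in 1 above and 1 below by DESeq2. Cd68, a lysosomal protein of macrophages named after its values were seen, was at 1.59, 6.37 and 11 CPM in the CFA vehicle libraries, 20.5, 5.05 and 12.3 CPM at 5d post-CFA, 8.24, 1.76 and 14.5 CPM in the Col vehicle libraries and 82.4, 125 and 53.7 CPM at 6d post-Col. The Col groups were apart and the CFA groups overlapped.

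A called difference came with the lipid-handling and lysosomal genes of debris-clearing macrophages. Of these 24 genes, 15 rose and 1 fell at 6d post-Col, and the CFA effect was below the Col effect in 6 and above it in 1. The 6 were 2 without 5d post-CFA replicate 3 and 1 without 6d post-Col replicate 2, and without CFA vehicle replicate 3, 8 genes rose at 5d post-CFA. Apoe, the lipid carrier apolipoprotein E (mm9, chromosome 7, 20281458 to 20284515), was at 159.9, 235 and 185 CPM in the CFA vehicle libraries, 502, 259 and 288 CPM at 5d post-CFA, 161, 242 and 276 CPM in the Col vehicle libraries and 1961, 2612 and 1304 CPM at 6d post-Col. Lgmn, the lysosomal protease legumain, was at 65.3, 56.5 and 61.9 CPM in Col vehicle and 276, 395 and 235 CPM at 6d post-Col, with 61.8, 89 and 57.8 CPM in CFA vehicle and 94, 84.8 and 96.2 CPM at 5d post-CFA. Both were far higher at 6d post-Col than in any other library of the contrast, and for Apoe the CFA groups did not overlap either. The interactions were -2.16 ± 0.49 (SE, adjusted p = 0.0217) for Apoe, -1.81 ± 0.29 (SE, adjusted p = 0.00701) for Lgmn and -2.32 ± 0.52 (SE, adjusted p = 0.0215) for the fatty acid carrier Fabp5. Igf1, the growth factor of muscle repair and named after its values were seen, had one of -2.39. Cd9, a tetraspanin, was the gene above, at 1.67, with r of 0.8 to the salivary score in the 19 libraries outside the contrast.

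Matrix genes had higher medians after Col than after CFA. Of 20 collagen genes, 9 rose and 1 fell at 6d post-Col (median 1.80), and the median at 5d post-CFA was 0.13, with 0 called. Of 33 matrix remodelling genes, 19 rose and 1 fell (median 1.66, against 0.03 at 5d post-CFA). The interaction was called below in 2 genes of each list and above in 1 of the second, against 3.43% below and 5.78% above over all genes tested. Without CFA vehicle replicate 3 the medians at 5d post-CFA were 1.08 and 0.69, and the median interaction of the collagen genes was -0.46, against -1.63 with it. The genes that rose at 6d post-Col were 5 and 11 without Col vehicle replicate 2 and 4 and 7 without 6d post-Col replicate 2, and with 1 library left out 0 to 4 and 1 to 7 were called below. Col8a1, a short-chain collagen, was at 5.44, 9.93 and 16.6 CPM in the CFA vehicle libraries, 21, 4.37 and 4.82 CPM at 5d post-CFA, 14.4, 7.57 and 19.1 CPM in the Col vehicle libraries and 210.3, 194 and 119 CPM at 6d post-Col. Its interaction was -3.67 ± 0.88 (SE, adjusted p = 0.0265). That of Col18a1, the source of endostatin, was -1.57, that of the crosslinking enzyme Loxl1 -3.02 and that of the collagen chaperone Serpinh1 -1.93. Mmp3, the matrix protease stromelysin, lay the other way, at 4.26, with 24.8, 2.29 and 3.12 CPM at 5d post-CFA, where replicate 1 was the highest, and 0.532, 0.703 and 1.63 CPM in its vehicle.

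Col1a1, the main fibrillar collagen and named after its values were seen, was at 50.3, 199.7 and 1544 CPM in the CFA vehicle libraries, 1178, 144 and 424 CPM at 5d post-CFA, 2358, 142 and 1655 CPM in the Col vehicle libraries and 5565, 5480.3 and 2834 CPM at 6d post-Col. Both vehicle groups spread over more than 10-fold, and the interaction of -1.75 ± 1.67 (SE, adjusted p = 0.518) was not called. Of 14 fibroblast progenitor genes 4 rose and 2 fell at 6d post-Col. Cd248 (endosialin) and Thy1 had interactions of -1.69 and -1.56, and Ly6a (Sca-1), which is also induced by interferon, had one of 2.05 ± 0.59 (SE, adjusted p = 0.0499). With 1 library left out, 0 to 4 genes of this list were called below and 0 or 1 above.

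Monocyte chemokines lay above vehicle after both insults by their medians. Of 12, 8 rose at 6d post-Col (median 2.65). At 5d post-CFA 9 were higher at an unadjusted p under 0.05 (median 2.93), 0 passed the adjusted test in edgeR, 6 did in DESeq2, 6 did without CFA vehicle replicate 3 and 5 and 4 did without Col vehicle replicates 1 and 2. The 8 at 6d post-Col were 5 without Col vehicle replicate 1 and 3 without 6d post-Col replicate 2. The interaction was called in 0 of the 12, with 0 at an unadjusted p under 0.05 and 0 by DESeq2, and its median was 0.10. The genes named in this and the next paragraph were chosen after their values were seen. Ccl8, a ligand of monocyte receptors (mm9, chromosome 11, 81928687 to 81930301), was at 0.532, 1.45 and 2.3 CPM in the CFA vehicle libraries, 9.07, 8.79 and 19.1 CPM at 5d post-CFA, 0.41, 1.7 and 2.4 CPM in the Col vehicle libraries and 7.06, 14.8 and 8.23 CPM at 6d post-Col. Each treated group lay above its vehicle group without overlap, and the interaction was 0.44 ± 0.90 (SE, adjusted p = 0.781). Ccl2, the main monocyte attractant, was at 4.09, 1.93 and 5.35 CPM at 5d post-CFA and 2.74, 8.77 and 1.63 CPM at 6d post-Col, against at most 1.37 CPM in CFA vehicle and 0.728 CPM in Col vehicle.

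Interferon-stimulated genes had a higher median after CFA than after Col. Of 22, 20 were higher at 5d post-CFA at an unadjusted p under 0.05 (median 2.77), with 0 past the adjusted test in edgeR, 16 in DESeq2, 14 without CFA vehicle replicate 3, 10 without 5d post-CFA replicate 1 and 7 and 8 without Col vehicle replicates 1 and 2. At 6d post-Col 5 rose (median 1.10), 0 without Col vehicle replicate 1 or 2 or 6d post-Col replicate 2 and 1 without 6d post-Col replicate 1. The median interaction was 1.37, but 0.42 without 5d post-CFA replicate 3 and 0.72 and 0.76 with the salivary and with both tissue covariates. The interaction was called in 0 by edgeR, with 8 above at an unadjusted p under 0.05, in 3 above by DESeq2 and in 5 above without 5d post-CFA replicate 1. Irf7, the transcription factor that amplifies interferon responses (mm9, chromosome 7, 148448605 to 148452380), was at 9.12, 17.2 and 7.86 CPM in the CFA vehicle libraries, 30.5, 168 and 260.1 CPM at 5d post-CFA, 10.3, 18.1 and 12.5 CPM in the Col vehicle libraries and 30.4, 48.7 and 12.8 CPM at 6d post-Col. Isg15, a ubiquitin-like effector, was at 3.88, 4.73 and 3.63 CPM in the CFA vehicle libraries, 9.26, 29.7 and 42.7 CPM at 5d post-CFA, 4.42, 9.13 and 3.98 CPM in the Col vehicle libraries and 8.39, 13.6 and 3.63 CPM at 6d post-Col. In both genes the CFA groups were apart, the Col groups overlapped, and replicate 1 at 5d post-CFA was well below the others. The interactions were 2.68 ± 0.93 (SE, adjusted p = 0.0869) and 2.27 ± 0.79 (SE, adjusted p = 0.089).

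**Figure D4:**
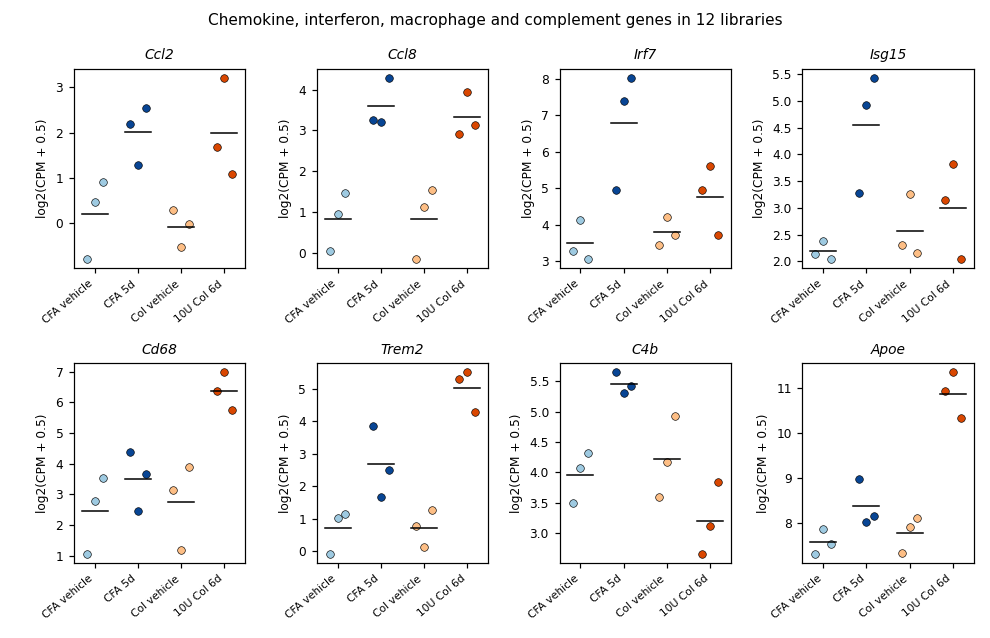
Levels of 8 inflammatory genes in the 12 libraries: each point is 1 library on a log2(CPM + 0.5) axis, lines are group means of those log2 values, and the x axis gives the 4 groups. Ccl8 lies above vehicle after both insults, while Irf7 reaches 260.1 CPM at 5d post-CFA and 48.7 CPM at 6d post-Col.

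Lists of antigen-presenting and of T and NK cells had medians above 0 after both insults. Of 19 dendritic cell and MHC class II genes, 13 rose at 6d post-Col and 10 were higher at 5d post-CFA at an unadjusted p under 0.05, with medians of 1.83 and 1.29. At 5d post-CFA 0 passed the adjusted test, and 9 did without CFA vehicle replicate 3. The 13 were 5 and 4 without Col vehicle replicates 1 and 2 and 6 and 2 without 6d post-Col replicates 1 and 2. Of 16 T and NK cell genes, 3 rose at 6d post-Col (7 without CFA vehicle replicate 3, 6 without Col vehicle replicate 3 and 1 without 6d post-Col replicate 1 or 2) and 0 were called at 5d post-CFA, where 8 were higher and 1 lower at an unadjusted p under 0.05, and without CFA vehicle replicate 3, 10 rose and 1 fell. The interaction was called in 0 genes of either list by edgeR, with 0 and 1 at an unadjusted p under 0.05, and in 0 and 1 by DESeq2. 2 of 16 complement genes were called above, C4b at 2.66 ± 0.55 (SE, adjusted p = 0.0164) and C2 at 1.73, and with 1 library left out 0 to 3 were called above and 0 to 4 below. C4b, the fourth complement component, was at 10.8, 16.4 and 19.4 CPM in the CFA vehicle libraries, 49.5, 39.3 and 42.3 CPM at 5d post-CFA, 11.6, 17.4 and 29.9 CPM in the Col vehicle libraries and 5.82, 8.2 and 13.8 CPM at 6d post-Col. It was above vehicle without overlap at 5d post-CFA and overlapped vehicle at 6d post-Col, and it was not called with both tissue covariates (adjusted p = 0.339).

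Acute inflammatory mediators had smaller medians than the chemokines. Of 18 tested, 4 rose and 2 fell at 6d post-Col and 0 were called at 5d post-CFA, with medians of 0.62 and 0.60. Neutrophil genes had negative medians after both, of -3.75 and -4.39 with 7 of 18 falling and 1 rising at 6d post-Col. The neutrophil score reached 4.12 in CFA vehicle replicate 3 and 4.74 in the Col vehicle group, and without CFA vehicle replicate 3 the median at 5d post-CFA was 0.68. Without Col vehicle replicate 3 that at 6d post-Col was -0.72 with 1 falling (15 genes tested in both cases), 0 to 4 fell without Col vehicle replicate 1 or any 1 treated library, and with both tissue covariates 8 rose. The 9 B cell genes tested had medians of -1.87 and -2.39, with 1 falling at 6d post-Col. Over the 5 of them tested in each case, the median at 5d post-CFA was 3.65 without CFA vehicle replicate 3 and that at 6d post-Col was 0.30 without Col vehicle replicate 3. Bone and cartilage genes (15 tested, 1 rose and 5 fell at 6d post-Col) and red blood cell genes (4 tested, 3 fell) were highest in CFA vehicle replicate 3 and in Col vehicle libraries, and edgeR called 0 genes of either list in the interaction, with 3 and 0 at an unadjusted p under 0.05 and 3 and 1 called by DESeq2.

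Cell cycle genes separated the insults only by their medians. The 30 genes had a median of 1.40 at 6d post-Col and -0.32 at 5d post-CFA, and 0 were called in either effect or in the interaction, with 1 higher and 1 lower at an unadjusted p under 0.05 at 6d post-Col and 0 in the interaction by either edgeR or DESeq2. With both tissue covariates 26 rose at 6d post-Col and 7 were called below in the interaction. Without CFA vehicle replicate 3 the median at 5d post-CFA was 2.04, the median interaction was 0.43, and 5 of the 30 rose there and 8 at 6d post-Col. Without Col vehicle replicate 3, 7 rose at 6d post-Col.

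The earlier groups place both effects in time. In a fit of all 31 libraries (15381 genes), 254 genes were higher (1.65%) and 213 lower (1.38%) at 5d than at 1d post-CFA, and 645 were higher (4.19%) and 532 lower (3.46%) at 6d post-Col than in the early 10U group. These counts moved with single libraries. For CFA they were 117 and 357 without replicate 2 of CFA_1d, and 7 to 27 higher and 10 to 123 lower without any 1 of the other 5. For Col they were 948 and 606 without replicate 4 of 2d_post_col, they were lowest without replicate 2 of 6d post-Col, at 318 and 120, and without its replicate 1 they were 382 and 172. They were 422 and 420 higher without replicates 1 and 2 of 2d_post_col, and 342 and 293 lower without replicate 2 of 2d_post_col and replicate 3 of 6d post-Col. The list medians that follow are changes against vehicle in this fit, and the 2 early groups share their vehicle groups with the later ones.

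Acute mediators had a median change of 3.53 at 1d post-CFA (4.05 without replicate 2) and 0.79 at 5d. In the Col experiment they were at 2.34 in the early group (2.71 without replicate 4), 0.90 at 6d and -0.000755 in the late group (-0.22 without its replicate 4). Of the 22 genes, 2 fell between 1d and 5d post-CFA (6 without replicate 2) and 8 fell between the early group and 6d post-Col (9 without replicate 4). Muscle atrophy and stress genes went the same way, at 0.94 and 1.17 early and at -0.57 and 0.22 later. The early medians were 1.25 without replicate 2 of CFA_1d and 1.45 without replicate 4 of 2d_post_col. Of 26, 15 fell between 1d and 5d post-CFA, and 18 did without replicate 2 of CFA_1d.

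Chemokines kept a high list median. It was 3.08 at 1d (3.52 without replicate 2) and 2.88 at 5d post-CFA, and 3.04 early (3.31 without replicate 4) and 2.68 at 6d post-Col. The median of the gene-by-gene difference between the times was -1.55 after CFA (-2.00 without replicate 2 of CFA_1d). After Col it was -0.59 (-0.79 without replicate 4 of 2d_post_col), and 2 genes fell (4 without that replicate). Interferon-stimulated genes had a higher median at the later time, at 1.29 (1.60 without replicate 2) and 2.71 after CFA and at 0.33 (0.24 without replicate 4) and 1.12 after Col. Of them 1 rose between 1d and 5d post-CFA, Irf7 at 2.45 ± 0.64 (SE, adjusted p = 0.0344), and 0 were called without replicate 2 of CFA_1d. Between the early group and 6d post-Col 1 rose, Cxcl9, a chemokine for T cells, at 2.49 ± 0.67 (SE, adjusted p = 0.0167), and 2 did without replicate 4 of 2d_post_col. Irf7 and Cxcl9 were named after their values were seen. Regeneration genes were at 0.59 in the early 10U group (0.71 without replicate 4) and 2.98 at 6d. Of the 26, 17 rose between them, 18 without replicate 4 of 2d_post_col. In the late group the median was 0.82, and 0.46 without its replicate 4. After CFA they were at -0.09 (-0.17 without replicate 2 of CFA_1d) and -0.42, and 0 of the list rose between 1d and 5d.

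On the side where the CFA effect lay above the Col effect, the largest values belonged to salivary secretory genes, and all 16 salivary genes tested were called above, with 2 called without 6d post-Col replicate 1 or 2, 7 without its replicate 3 and 10 without 5d post-CFA replicate 2 or Col vehicle replicate 2. Dcpp1, a secreted protein of the salivary glands, was at 1.27, 1.36 and 303 CPM in the CFA vehicle libraries, 10274, 5731 and 1428 CPM at 5d post-CFA, 1.14, 8381 and 1113 CPM in the Col vehicle libraries and 0, 0.0677 and 0.0835 CPM at 6d post-Col. All 10 genes with the largest positive interaction (Dcpp1, Cst10, Smr3a, Bpifa2e, Chia, Dcpp2, Car6, Pip, Dcpp3 and 2310057J18Rik) followed the salivary score. At least Smr3a and Dcpp2 are themselves part of that score. The kallikrein Klk1 was at 1739, 1099 and 584 CPM at 5d post-CFA and 1.33, 0.948 and 5.26 CPM at 6d post-Col, with 30.0, 7.17 and 78.2 CPM in CFA vehicle and 2.32, 1269 and 260.4 CPM in Col vehicle. Its interaction was 12.62, and -0.70 with the salivary covariate.

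Of 20 keratinocyte genes, 12 were called above, with 15 falling and 1 rising at 6d post-Col, and 6 of them differed between the vehicle groups themselves. The 15 were 8 without Col vehicle replicate 2 or 6d post-Col replicate 1 and 6 without 6d post-Col replicate 2, which left 7 called above, and with the salivary and with both tissue covariates 0 and 1 were called above. Krt10, a keratin of the upper epidermis, was at 1.35, 1.08 and 2 CPM in the CFA vehicle libraries, 3.21, 2.55 and 1.75 CPM at 5d post-CFA, 29.7, 62.2 and 39.8 CPM in the Col vehicle libraries and 11.2, 10.4 and 11.6 CPM at 6d post-Col. It was low in both CFA groups and lower at 6d post-Col than in every Col vehicle library, and its interaction was 2.82 ± 0.47 (SE, adjusted p = 0.00834). Lgals7, an epithelial galectin, had the same form, with an interaction of 4.71. With both vehicle groups pooled, the interactions of Krt10 and Lgals7 were -2.08 and -0.09. Krt14, the keratin of basal epithelium, was at 2.17, 1.69 and 4.37 CPM in the CFA vehicle libraries, 11.2, 14.1 and 11.4 CPM at 5d post-CFA, 5.42, 25.7 and 4.39 CPM in the Col vehicle libraries and 1.63, 1.08 and 1.92 CPM at 6d post-Col. It was above vehicle without overlap at 5d post-CFA, and Col vehicle replicate 2 was the highest library. Its interaction was 5.15 ± 0.92 (SE, adjusted p = 0.0108), and that of the calmodulin-like Calml3 was 8.78.

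Schwann cell genes were on the positive side as well. Of 14, 9 fell and 1 rose at 6d post-Col, 6 were called above in the interaction, and the medians were -1.51 at 6d post-Col and 0.19 at 5d post-CFA. With the salivary covariate 0 were called above and the median interaction was 0.75, against 1.55 without it, and with both covariates 1 was. The 6 were 3 without 5d post-CFA replicate 2 or 6d post-Col replicate 1 and 2 without 6d post-Col replicate 2. The median interaction was 0.84 with genes overlapping the opposite strand left out, 1.02 without Col vehicle replicate 2 and 2.11 with pooled vehicles. Mbp, the myelin basic protein, was at 276, 291 and 164 CPM in the CFA vehicle libraries, 288, 272 and 224 CPM at 5d post-CFA, 119.5, 401 and 167 CPM in the Col vehicle libraries and 27.8, 26.1 and 57.7 CPM at 6d post-Col. Prx, periaxin of the myelin sheath, was at 62.2, 141 and 55.5 CPM in Col vehicle and 14, 7.65 and 17.9 CPM at 6d post-Col, with 94.8, 102 and 59.9 CPM in CFA vehicle and 105, 82.7 and 74.1 CPM at 5d post-CFA. In both the 6d post-Col libraries were below every other library and the CFA groups overlapped. The interactions were 2.82 ± 0.63 (SE, adjusted p = 0.0214) and 2.84 ± 0.56 (SE, adjusted p = 0.0134), and that of Cnp, a myelin enzyme, was 1.46. In the 19 libraries outside the contrast their correlations with the salivary score were 0.333, 0.328 and 0.089. Sox10, a transcription factor of Schwann cells that salivary glands also express, had an interaction of 5.47 ± 0.83 (SE, adjusted p = 0.00572) and a correlation of 0.903. Both Mbp and Prx overlap a gene on the opposite strand.

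Neurotrophic factors were among the smaller lists with a call. Of 20 pain mediators and neurotrophic factors, 3 rose at 6d post-Col and 0 were called at 5d post-CFA. Gdnf, a growth factor for motor and sensory neurons, was at 3.88, 3.19 and 1.93 CPM in the CFA vehicle libraries, 1.21, 1.04 and 0.424 CPM at 5d post-CFA, 5.23, 2.09 and 1.54 CPM in the Col vehicle libraries and 5.14, 10.3 and 15 CPM at 6d post-Col. The CFA groups were apart with 5d lower, the Col groups overlapped, and the interaction was -3.43 ± 0.78 (SE, adjusted p = 0.0221). Bdnf, the brain-derived neurotrophic factor, was at 2.21, 1.92 and 1.45 CPM in the CFA vehicle libraries, 1.12, 0.468 and 0.583 CPM at 5d post-CFA, 1.05, 0.913 and 1.18 CPM in the Col vehicle libraries and 1.84, 2.2 and 3.97 CPM at 6d post-Col. It was lower than its own vehicle after CFA and higher after Col with no overlap, and the interaction was -2.60 ± 0.59 (SE, adjusted p = 0.0221). The CFA vehicle libraries lay above every Col vehicle library, however, and 1.84 and 2.2 CPM at 6d post-Col lay within the CFA vehicle range. Nrg1, the neuregulin that acts on Schwann cells and motor endplates, had an interaction of -3.61, and Ntf5 (neurotrophin 4/5) had one of 2.12. The list held 3 genes called below, and 1 without 5d post-CFA replicate 3 or 6d post-Col replicate 2.

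The remaining lists held few calls. Of 25 adipocyte and lipid synthesis genes 6 fell and 1 rose at 6d post-Col, and the interaction was called below for Cidea, a lipid droplet protein, at -5.34, and for Elovl3, a fatty acid elongase that was at or under 3 counts in all libraries but those at 6d post-Col, where it rose at least 7.29-fold. For Cidea the Col groups overlapped and 1 library, 6d post-Col replicate 1 at 20.9 CPM, was far above the others. Of 10 tendon genes 2 rose and 1 fell at 6d post-Col, Scx, the tendon transcription factor scleraxis, had an interaction of -3.0 ± 0.47 (SE, adjusted p = 0.00694) and the immediate early gene Egr1 one of -3.43. Scx was at 11.1, 4.76 and 7.61 CPM in Col vehicle and 32.4, 39.7 and 29.1 CPM at 6d post-Col, and overlaps a gene on the opposite strand. Of 16 endothelial genes 2 fell at 6d post-Col and 0 were called in the interaction by edgeR or DESeq2. At an unadjusted p under 0.05, 3 of the 16 were above, against 2417 of all 14753 genes.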

How the data were processed

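The authors made stranded poly(A) libraries from dissected MM, sequenced them on an Illumina HiSeq 3000 and deposited raw read counts per gene symbol, 1 table per library. The submitters' processing notes name bcl2fastq, TopHat2, HTSeq and build mm9 without versions, and the strand setting of the counting is not given in the sources used here. Multi-mapped reads are outside the counts, so genes with near-identical copies, such as the Dcpp family, are uncertain. The 5 closing lines of each table were kept out of library sizes, and reads on no gene made up 6.69 to 21.5% of the 12 libraries (6.69 to 12.1% in the CFA groups, 11.5 to 20.9% in the Col vehicle group and 19.2 to 21.5% at 6d post-Col). Counting error covers only part of the spread and is largest for genes near the floor of 3 counts.

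Genes that reached 10 counts in 3 or more of the 12 libraries were tested in R 4.3.3 by the quasi-likelihood test of edgeR 4.0.16 with TMM scaling, 1 term per group and Benjamini-Hochberg adjustment over all 14753 genes. A gene was called at an adjusted p under 0.05 and over 2-fold. SE is the log2 change divided by the square root of F. Printed CPM are TMM-scaled over 31 libraries, and scores are means of log2(CPM + 0.5). Time contrasts came from 1 fit of 31 libraries. A single gene compared between 3 and 3 libraries by an exact permutation test could not go below p = 0.1, so none was used. Same-numbered libraries of the 2 vehicle groups deviated together (r of 0.24, 0.108 and 0.653 over genes), so the comparison of the vehicle groups is also given with the number as a block; in no other pair of groups did all 3 numbers pass 0.1. No pair among the 66 pairs of libraries held identical counts. Symbols were joined to GENCODE vM1 (mm9), 21627 by symbol and 30 by synonym, and the fit was tested on simulated data.

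The members, gene lists and contrasts were chosen with earlier results of these data known. In each list the 4 called genes with the smallest adjusted p were named, with the 10 largest interactions in each direction among genes of at least 5 CPM in a group, genes called the same way in both effects, and 5 removed genes in each direction. 1 gene that this rule would name is not reported here. The alternatives were DESeq2 1.42.0 (Wald test, or its size factors within edgeR), testing without the low-count filter, a CPM threshold of 1, no or another gene removal, all 31 libraries, pooled vehicles, a replicate block and each library left out. Tissue covariates, genes free of opposite-strand overlap, separate fits per effect and those of the time and direct contrasts were added after the data were seen. Comparisons made by the authors were not used.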

Additional observations from a re-analysis of the deposited data

Results flagged for a closer look

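The change against vehicle differed between the insults, by the interaction test, in 852 genes whose CFA effect lay above the Col effect and in 506 whose CFA effect lay below it.

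The following genes named in the report had a called interaction and lay on opposite sides of vehicle after the 2 insults, each at an unadjusted p under 0.05. Values are interactions on the log2 scale. Muscle genes with a CFA effect below the Col effect were Myog at -5.84, Tnni1 at -8.13, Tnnt1 at -6.97, Myoz2 at -3.62 and Casq2 at -3.11. The lipid droplet gene Cidea was at -5.34. The trophic factors Gdnf and Bdnf were at -3.43 and -2.60, and the tendon factor Scx was at -3.0. With a CFA effect above the Col effect, C4b was at 2.66, Ly6a at 2.05, and the epithelial genes Calml3, Lgals7, Krt10 and Krt14 were at 8.78, 4.71, 2.82 and 5.15. With pooled vehicles Krt10 and Lgals7 were at -2.08 and -0.09. All of the 70 named genes with a called interaction lost their call with the salivary covariate.

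Reads that fit more than 1 gene, which enter no comparison, made up a median of 0.815% in the 11 libraries of 10U, above all 20 other libraries.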

How the results depend on the processing

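With the salivary covariate, the interaction called 1 gene above and 2 below, 1008 genes were higher at 5d post-CFA than at 6d post-Col, and 0 and 3 genes were higher and lower at 5d post-CFA. With salivary and red blood cell covariates it called 310 above, of which 114 were among the 852 of the main fit. In that fit 3078 genes rose at 6d post-Col, 0 rose at 5d post-CFA and 25 were higher in CFA vehicle than in Col vehicle. Pooling the vehicles gave 1694 above and 1481 below and 49 rising at 5d post-CFA, and leaving out genes with opposite-strand overlap gave 556 above. DESeq2's Wald test gave 890 below, 495 and 73 higher and lower at 5d post-CFA, and 39 and 71 between vehicles. Fitting all 31 libraries gave 33 and 4 at 5d post-CFA, and the 6 CFA libraries alone 138 and 6. Without the low-count filter 166 genes were higher at 5d than at 1d post-CFA. The cause of these shifts was not tested. Over all 4 groups replicate numbers did not pair the libraries (r of deviations -0.336 to 0.653 over 18 pairs, 6 over 0.1). With the replicate block the interaction called 682 above and 421 below, 0 genes rose at 5d post-CFA, 1 and 15 genes were higher and lower in CFA vehicle than in Col vehicle, and 157 were higher at 5d than at 1d post-CFA.

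Leaving out 1 library gave 267 to 1207 genes above and 180 to 877 below in the interaction, 656 to 1730 higher and 618 to 1655 lower at 6d post-Col, 0 to 850 and 0 to 86 at 5d post-CFA, 3 to 50 and 17 to 126 between vehicles, and 1014 to 1865 and 885 to 1799 between the treated groups. Over time these ranges were 7 to 117 and 10 to 357 for CFA and 318 to 948 and 120 to 606 for Col. The lone libraries named in the report set most of the extremes. Klk1 changed sign with the salivary covariate (-0.70), Dcpp2 with it (-2.33) and with both covariates (-17.12), and Lgals7 (-0.0927) and Krt10 (-2.08) with pooled vehicles. Of 70 named genes, 70 lost their call with the salivary covariate, 50 with both covariates, 18 with all 31 libraries, 11 with the replicate block and 0 with DESeq2's Wald test. With 1 library left out 2 to 31 did, the most without 6d post-Col replicates 2 and 1 (31 and 25 of the 64 tested then).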
